A study of Mus musculus with 9 samples.

Results

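AP-1 and the other immediate early transcription factors were followed across 3 mouse cell lines. They comprise the Fos proteins (Fos, Fosb, Fosl1 and Fosl2), the Jun proteins (Jun, Junb and Jund), Atf3, Egr1 and Myc. All 10 genes were measured, through the 14 probe sets that carry one of these symbols alone, out of 18193 genes and 45037 probe sets other than controls. The genes were taken by name as a family, with earlier results of these data known.

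MDA-F471, the tumour line, came from a lung adenocarcinoma of a female mouse lacking Gprc5a, killed 16 months after it had been injected with NNK, a tobacco carcinogen. The knockout line (NULL-NLE) and the wild-type line (WT-NLE) are non-tumorigenic cultures from the tracheas of 3-week-old mice without and with Gprc5a, a receptor that acts as a lung tumour suppressor. All mice were of the strain C57/BL6 x sv129, and both the tumour and the knockout line lack intact Gprc5a. Each line was hybridised to 3 Affymetrix arrays, 9 in all. The labels do not say whether the 3 arrays came from separate cultures, so the p-values cover array-to-array spread, which may be technical. Since each group is 1 line, genotype, line and handling cannot be told apart, and the tumour line differs from both others also in organ, carcinogen exposure and age of the mouse.

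AP-1 is a dimer of leucine zipper proteins: Jun proteins pair with each other or with a Fos or Atf protein, whereas Fos proteins need a Jun partner. Growth factors, acting through ERK and JNK kinases, switch on the genes of Fos, Jun, Egr1, Atf3 and Myc within minutes, while Fosl1 and Fosl2 follow later and last longer, and Jund is made constantly. Wounding and growth stimulation of airway epithelium are known to engage these factors. Only RNA was measured here, and Fos and Jun proteins are also controlled by phosphorylation and turnover.

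Values are the deposited signals, taken as log2 from their range, a relative scale on which 1 unit is a 2-fold difference. Signals of different probe sets are not comparable with each other. A gene was called when limma's Benjamini-Hochberg adjusted p over all genes was under 0.05 and the difference at least 2-fold, and "rose" and "fell" are used of called differences. Differences carry the standard error (SE) of the fit. Counts of genes at an unadjusted p under 0.05 are given without the share of all genes, which is not given here. Such counts are therefore not read as a result. A log2 signal of 5.15, the 95th percentile over 27 probe sets for bacterial controls, served as a background floor, and their highest value was 5.96. Overlap of arrays between lines is given only as a description, because the share of all genes without overlap is not given here.

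Array medians lay between 6.28 and 6.34. The Affymetrix control BioB read 7.60 to 8.24 log2 on tumour arrays, 8.32 to 9.48 on knockout arrays and 8.42 to 8.57 on wild-type arrays. All tumour arrays thus lay under all others for this control, and its bearing on the results was not tested. Gprc5a averaged 7.02 ± 0.06 log2 on tumour, 7.16 ± 0.06 on knockout and 8.57 ± 0.22 on wild-type arrays (SD, n = 3 each), lower in both knockout-derived lines, as labelled. The 3' minus 5' signal of the beta-actin control, a measure of RNA integrity and labelling, was 0.37 to 0.74 on tumour arrays, 0.90 to 0.95 on knockout arrays and 0.75 to 1.78 on wild-type arrays. Epcam, which marks epithelium, averaged 12.03 log2 on tumour, 11.73 on knockout and 11.74 on wild-type arrays. The keratins of simple epithelium differed more, Krt8 at 13.99, 12.66 and 11.68, Krt18 at 14.08, 10.59 and 8.03 and Krt19 at 12.05, 5.32 and 10.22 in the same order of lines. Cdh1, another epithelial marker, was lowest in the tumour line, at 11.92, 12.63 and 12.88. The basal cell keratin Krt5 averaged 8.43, 14.38 and 14.46. The alveolar markers Sftpc (5.72, 5.74 and 5.78) and Nkx2-1 (5.35, 5.47 and 5.18) lay under the highest bacterial control in all 3 lines, whereas Sftpb (7.85, 7.99 and 7.68) and Abca3 (9.52, 9.62 and 9.64) lay above it. Of 4 leukocyte markers 3 averaged above the floor in every line (Cd68 at 6.92, 7.71 and 8.03 in the tumour, knockout and wild-type lines), while Ptprc, which defines leukocytes, lay under it on all 9 arrays. Of 8 fibroblast markers 7 averaged above the floor in every line, and Col3a1 lay under it on all 9 arrays. The floor lies under every array median, and Gprc5a still read 7.02 and 7.16 in the lines that lack it intact. A mean above the floor therefore does not by itself show that a gene was expressed. The same limit holds for members at such levels, as for Egr1 on tumour arrays and Fosl1 on tracheal arrays. The summed signal on tumour, knockout and wild-type arrays was 8.58 to 8.63, 8.81 to 9.07 and 9.06 to 9.17 log2 for leukocyte markers, and 8.92 to 8.94, 8.91 to 8.97 and 8.86 to 9.02 for fibroblast markers. The summed signal of 4 smooth muscle markers was 8.95 to 9.17 log2 on tumour arrays, 10.16 to 10.18 on knockout arrays and 11.28 to 11.52 on wild-type arrays, and Acta2 carried this order, with averages of 8.23, 9.84 and 11.24. The other smooth muscle markers varied little, Myh11 at 5.54, 5.50 and 5.42, Cnn1 at 5.27, 5.34 and 5.12 and Des at 7.15, 7.19 and 7.10. The part of these markers in the results was not tested.

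RefSeq's promoter table (build GRCm38.p6) holds 7 of the 10 genes. The 250 bases before the transcription start of 3 of them, Jun, Atf3 and Fosl2, are printed here as examples. Fosb and Jund, which also differed in the tumour line, are not printed, and Atf3 fell just short of a call. Jun and Atf3 were the only genes of the 7 with a match, so the printed windows do not represent the family. Capitals mark matches, on either strand, to the AP-1 site TGANTCA, the cAMP response element TGACGTCA, their variants TGACATCA and TTACGTCA, the Myc site CACGTG or the CArG box bound by serum response factor.
Jun, chr4:95052223-95052472, minus strand: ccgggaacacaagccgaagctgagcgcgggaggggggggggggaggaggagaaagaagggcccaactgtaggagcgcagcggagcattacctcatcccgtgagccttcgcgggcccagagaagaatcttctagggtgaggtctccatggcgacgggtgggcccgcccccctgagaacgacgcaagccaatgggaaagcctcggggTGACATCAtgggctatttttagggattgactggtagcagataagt
Atf3, chr1:191183334-191183583, minus strand: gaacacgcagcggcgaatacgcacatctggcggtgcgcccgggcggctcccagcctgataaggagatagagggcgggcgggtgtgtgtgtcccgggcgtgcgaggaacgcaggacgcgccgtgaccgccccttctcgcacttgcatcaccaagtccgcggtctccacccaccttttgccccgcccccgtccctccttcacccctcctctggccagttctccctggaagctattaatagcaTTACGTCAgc
Fosl2, chr5:32136222-32136471, plus strand: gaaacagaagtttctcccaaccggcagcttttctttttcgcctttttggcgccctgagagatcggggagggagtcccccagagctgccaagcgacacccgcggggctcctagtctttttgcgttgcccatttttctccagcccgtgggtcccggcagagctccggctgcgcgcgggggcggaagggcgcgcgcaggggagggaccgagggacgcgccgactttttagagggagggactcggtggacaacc

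The Jun window held TGACATCA from 45 to 38 bases before the start, and the Atf3 window TTACGTCA from 10 to 3 bases before it. The Fosl2 window held none of the 6 motifs, nor did those of Fos, Fosb, Junb and Jund. Among all 32851 windows of this length in the table, 6.75% held TGANTCA, 1.55% TGACGTCA, 2.93% TGACATCA, 0.447% TTACGTCA, 6.02% CACGTG and 1.47% a CArG box. A match is a string of letters and not a measured binding site. No other variants were searched, and how these were chosen is not given. The shares are therefore no test of whether the matches of Jun and Atf3 are unusual.

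**Figure D1:**
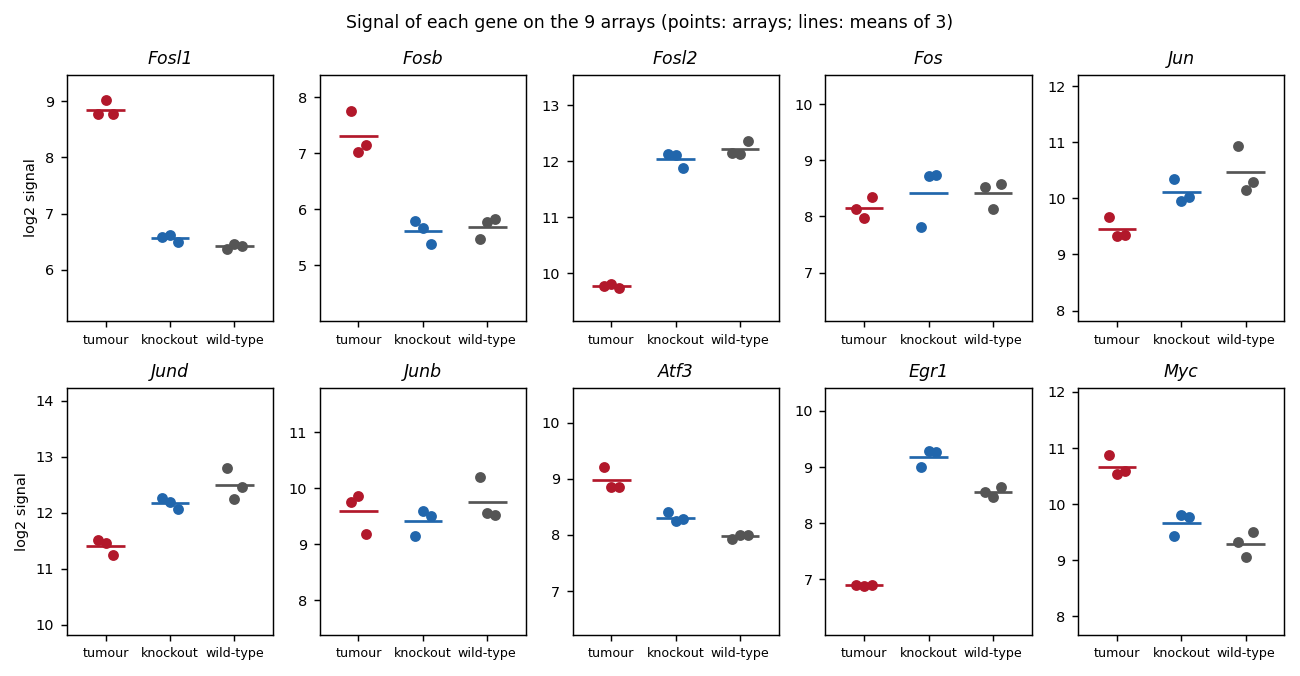
Log2 signal (vertical axis, spanning the same number of units in each panel) of the brightest probe set of each gene on the tumour, knockout and wild-type arrays. Points are arrays and lines are means of 3. Tumour points of Fosl1, Fosb, Atf3 and Myc stand above, and those of Fosl2, Egr1, Jun and Jund below, all points of both tracheal lines.

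The tumour line had another set of Fos family transcripts than the tracheal lines: Fosl1 and Fosb were higher, Fosl2 was lower, and Fos itself was not called. Egr1 was lower than in either tracheal line. Jun and Jund were called lower and Myc higher than in the wild-type line. Against the knockout line these 3 differed the same way but under 2-fold (limma adjusted p of 0.00612, 0.000141 and 2.03e-05). The calls of Jun and Jund were lost without wild-type replicate 1, and the dimmer Jund probe set did not follow. Atf3 was higher than in both tracheal lines, at 1.999-fold against wild-type just short of a call. Between the knockout and wild-type lines no member was called. In RNA from whole cultures, fewer expressing cells and less RNA per cell cannot be told apart. Of the 10 genes, 3 rose and 4 fell in the tumour against the wild-type line, where 16.6% of all 18193 genes were called, 8.09% higher and 8.46% lower. Against the knockout line 2 rose and 2 fell, where 14.2% of all genes were called, 7.79% higher and 6.38% lower. Both comparisons use the same tumour arrays. The members' median difference was -0.21 log2 for tumour against wild-type and -0.048 for tumour against knockout, beside 0.0101 and 2.73e-05 over all genes. Read one by one, 9 of the 14 probe sets were called for tumour against wild-type (13.1% of all probe sets), 6 for tumour against knockout (11.4%) and 0 for knockout against wild-type (3.71%, by limma, with 5 of 14 at an unadjusted p under 0.05).

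**Figure D2:**
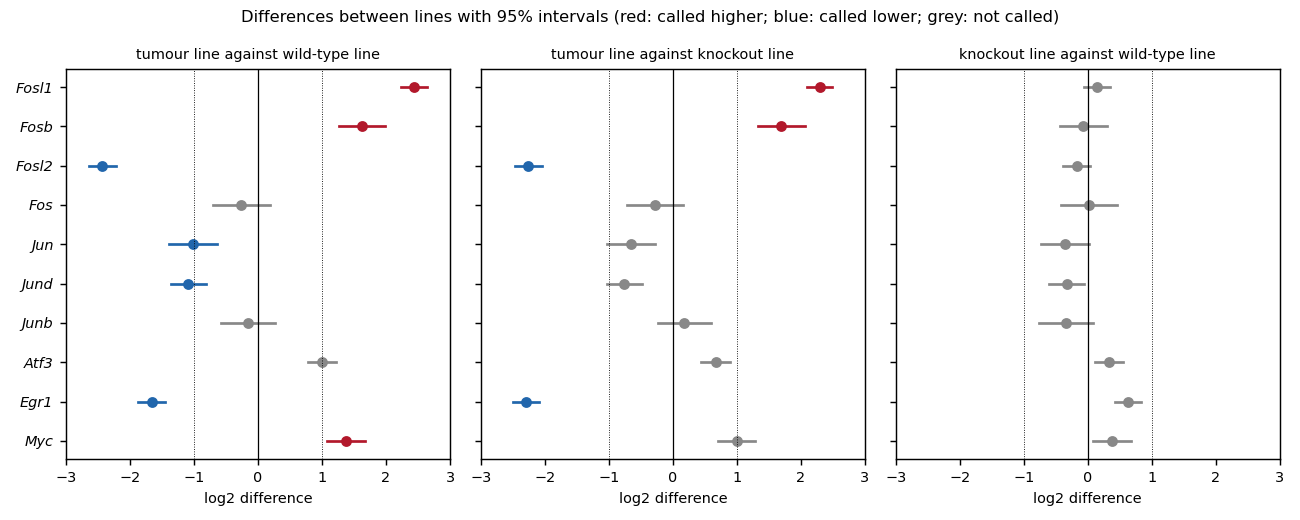
Log2 difference (horizontal axis) of each gene in the 3 comparisons, with 95% confidence intervals from limma. Dotted lines mark 2-fold, red points were called higher, blue points lower and grey points were not called. Fosl1 lies at 2.44 and Fosl2 at -2.43 for tumour against wild-type, while every point of knockout against wild-type lies between the dotted lines.

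Fosl1, also called Fra-1, is a Fos protein that lacks a strong activation domain and is kept up by ERK signalling. Its brighter probe set read 8.77, 9.01 and 8.78 on tumour arrays, 6.58, 6.61 and 6.49 on knockout arrays, and 6.36, 6.46 and 6.42 on wild-type arrays. No tumour array overlapped those of the tracheal lines, whose own values lay close together. Set against knockout arrays, tumour arrays were 4.89-fold higher, a rise of 2.29 ± 0.09 SE log2 (limma adjusted p = 4.15e-11). Against the wild-type line the rise was 2.44 ± 0.09, or 5.42-fold (limma adjusted p = 1.65e-11). Fosl1 had the largest rise of the 10 genes in both comparisons.

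A second, dimmer Fosl1 probe set moved the same way. It read 7.42, 7.18 and 6.79 on tumour arrays, 5.51, 5.40 and 5.38 on knockout arrays, and 5.29, 5.50 and 5.14 on wild-type arrays. The tracheal values lay close to the background floor. Tested among all probe sets, it rose by 1.70 ± 0.15 log2 against the knockout line (limma adjusted p = 1.99e-06) and by 1.82 ± 0.15 against the wild-type line (adjusted p = 9.38e-07).

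Fosb encodes a Fos protein with a short-lived message. It read 7.75, 7.02 and 7.16 on tumour arrays, 5.79, 5.67 and 5.38 on knockout arrays, and 5.46, 5.77 and 5.82 on wild-type arrays. The tracheal lines overlapped each other and lay under the highest bacterial control, so their values rest in part on background. In the tumour line Fosb rose by 1.69 ± 0.17 log2 against the knockout line (limma adjusted p = 8.02e-07) and by 1.62 ± 0.17 against the wild-type line (adjusted p = 1.07e-06).

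Fosl2, or Fra-2, is the closest relative of Fosl1 and is found in stratified epithelium such as epidermis. Its brighter probe set read 9.79, 9.82 and 9.74 on tumour arrays, 12.13, 12.11 and 11.88 on knockout arrays, and 12.15, 12.14 and 12.35 on wild-type arrays. All tumour arrays lay under all tracheal arrays. The fall was 4.80-fold against the knockout line (-2.26 ± 0.10 log2, limma adjusted p = 8.25e-11) and 5.40-fold against the wild-type line (-2.43 ± 0.10, adjusted p = 2.94e-11).

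The second Fosl2 probe set differed far less between lines. It read 7.42, 7.36 and 7.25 on tumour arrays, 7.91, 7.74 and 7.60 on knockout arrays, and 7.91, 7.52 and 7.62 on wild-type arrays. The tumour values were again the lowest. The difference was -0.41 ± 0.12 log2 against the knockout line (limma adjusted p = 0.0177) and -0.34 ± 0.12 against the wild-type line (adjusted p = 0.0392), under 2-fold in both. With the mean of both probe sets Fosl2 was still called, at -1.34 against the knockout and -1.39 against the wild-type line. What part of the transcripts each probe set reads is not given in the sources used here.

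Fos, the founding member and the fastest of the family to respond, read 8.14, 7.96 and 8.34 on tumour arrays, 7.82, 8.72 and 8.74 on knockout arrays, and 8.52, 8.13 and 8.58 on wild-type arrays. All 3 lines overlapped, with knockout replicate 1 the lowest array of all. The tumour difference was -0.28 log2 against the knockout line (95% interval -0.72 to 0.16, limma adjusted p = 0.321) and -0.26 against the wild-type line (-0.70 to 0.18, adjusted p = 0.338). Both intervals lie inside 2-fold.

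**Figure D3:**
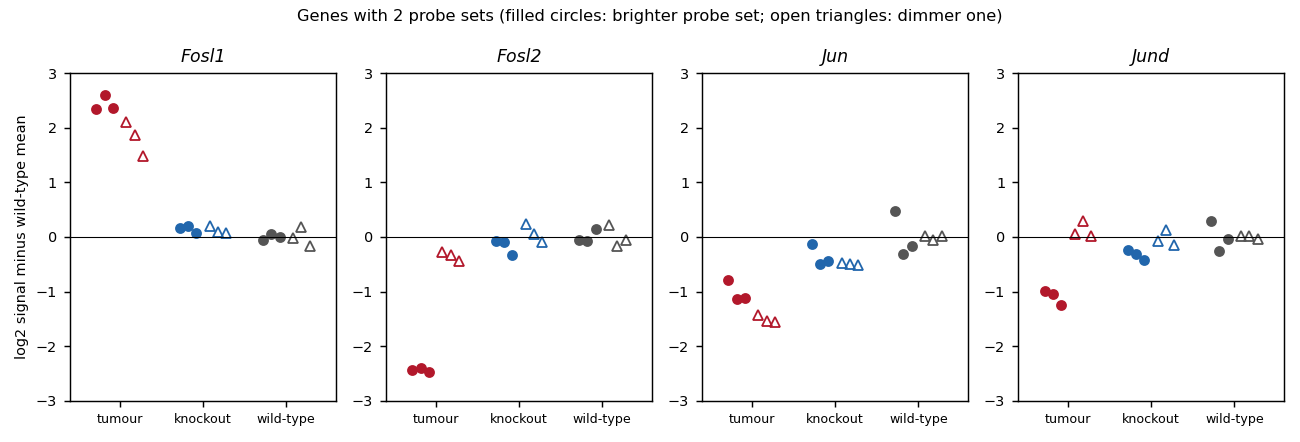
Log2 signal minus the wild-type mean of the same probe set (vertical axis) for the 4 genes with 2 probe sets, by line. Filled circles are the brighter and open triangles the dimmer probe set, 1 symbol per array. Both probe sets of Fosl1 and of Jun move the same way in the tumour line, whereas the dimmer ones of Fosl2 and Jund stay within 0.5 log2 of the wild-type mean.

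Jun is the strongest activator among the Jun proteins and a target of JNK. Its brighter probe set read 9.67, 9.33 and 9.34 on tumour arrays, 10.34, 9.96 and 10.02 on knockout arrays, and 10.94, 10.15 and 10.29 on wild-type arrays. Tumour arrays were lowest, knockout and wild-type arrays overlapped, and wild-type replicate 1 stood above the rest. Jun fell by 1.01 ± 0.17 log2 in the tumour against the wild-type line (limma adjusted p = 0.000173). Against the knockout line the difference was -0.66 ± 0.17 (adjusted p = 0.00612), under 2-fold. The call against wild-type sat at the 2-fold line and was lost without wild-type replicate 1 (-0.77), without tumour replicate 2 (-0.95) and without tumour replicate 3 (-0.96).

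The dimmer Jun probe set separated all 3 lines. It read 8.03, 7.91 and 7.89 on tumour arrays, 8.98, 8.95 and 8.94 on knockout arrays, and 9.47, 9.40 and 9.48 on wild-type arrays. The arrays of each line lay within a narrow range, and no 2 lines overlapped. On this probe set Jun in the tumour line fell by 1.01 ± 0.08 log2 relative to the knockout line (limma adjusted p = 8.96e-07) and by 1.51 ± 0.08 against the wild-type line (adjusted p = 2.39e-08). Knockout against wild-type gave -0.49 ± 0.08 (adjusted p = 0.001), under 2-fold.

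Jund, the Jun protein that is present in resting cells, read 11.52, 11.45 and 11.25 on tumour arrays, 12.26, 12.19 and 12.07 on knockout arrays, and 12.79, 12.24 and 12.46 on wild-type arrays. The tumour arrays lay under both tracheal lines, which overlapped. Jund fell by 1.09 ± 0.13 log2 against the wild-type line (limma adjusted p = 3.61e-06). The difference from the knockout line was -0.76 ± 0.13 (adjusted p = 0.000141), under 2-fold. Without wildtype replicate 1, the highest array, the difference from wild-type was -0.94 and not called. A second Jund probe set, at 5.56 to 5.99 log2 on all 9 arrays and so close to background, differed by 0.12 ± 0.10 log2 there (adjusted p = 0.403). With the mean of both probe sets the call was lost (-0.48).

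Junb, which often opposes Jun, read 9.75, 9.86 and 9.18 on tumour arrays, 9.15, 9.58 and 9.51 on knockout arrays, and 10.19, 9.55 and 9.52 on wild-type arrays. All lines overlapped. The tumour difference was 0.18 ± 0.19 log2 against the knockout line (95% interval -0.24 to 0.60, limma adjusted p = 0.513) and -0.16 ± 0.19 against the wild-type line (-0.58 to 0.26, adjusted p = 0.551). Wild-type replicate 1 was the highest of the wild-type arrays for Junb and for the brighter probe sets of Jun and Jund.

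Atf3, a stress-induced partner of Jun, read 9.21, 8.86 and 8.86 on tumour arrays, 8.40, 8.25 and 8.28 on knockout arrays, and 7.931, 8.004 and 7.998 on wild-type arrays. No lines overlapped, and the tumour line was highest. The tumour difference was 1.00 ± 0.10 log2 against the wild-type line (limma adjusted p = 1.12e-06), 1.999-fold and so just short of a call. It was 0.67 ± 0.10 against the knockout line (adjusted p = 8e-05). Knockout exceeded wild-type by 0.33 ± 0.10 (adjusted p = 0.0298), also under 2-fold. The difference from wild-type was called when arrays were centred on their medians (1.01), without tumour replicate 2 (1.06) or 3 (1.06), and without wild-type replicate 2 (1.01) or 3 (1.01).

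Egr1, a zinc finger factor induced through serum response factor and Elk proteins, read 6.90, 6.88 and 6.90 on tumour arrays, 9.01, 9.28 and 9.27 on knockout arrays, and 8.55, 8.47 and 8.64 on wild-type arrays. No lines overlapped, and the knockout line was the highest. Tumour arrays were 4.90-fold lower for Egr1 than knockout arrays (-2.29 ± 0.10 log2, limma adjusted p = 5.48e-11). The fall against the wild-type line was 3.17-fold (-1.66 ± 0.10, adjusted p = 1.56e-09). Between the tracheal lines the difference was 0.63 ± 0.10, or 1.55-fold (adjusted p = 0.00016), the largest difference of the 10 genes there and not called.

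Myc, a helix-loop-helix factor that drives growth and ribosome production, read 10.87, 10.53 and 10.59 on tumour arrays, 9.43, 9.80 and 9.78 on knockout arrays, and 9.32, 9.05 and 9.50 on wild-type arrays. Tumour arrays were the highest, and the tracheal lines overlapped. Myc rose 2.59-fold in the tumour against the wild-type line (1.37 ± 0.14 log2, limma adjusted p = 6.11e-07). The difference from the knockout line was 0.996 ± 0.14, or 1.99-fold (adjusted p = 2.03e-05), just short of a call. That difference was called when arrays were centred on their medians (1.01), and also without tumour replicate 2 (1.06), tumour replicate 3 (1.03), knockout replicate 2 (1.06) or knockout replicate 3 (1.05).

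Between knockout and wild-type lines the differences of all 10 genes stayed under 2-fold. By limma 0 of 10 genes were called, where 4.88% of all genes were, and 4 of 10 had an unadjusted p under 0.05. Egr1 and Atf3, both higher in the knockout line, had an adjusted p under 0.05 at any fold. At that looser threshold 26.4% of all genes passed in this comparison, so at least that share had an unadjusted p under 0.05. In the comparison of tumour with knockout 8 of 10 genes passed it, beside 44.5% of all genes, and for tumour against wild-type 8 of 10, beside 47.3%. Fos and Junb missed it in all 3 comparisons.

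The order of the lines differed between members. Fosl1, Atf3 and Myc had their highest mean in the tumour line, then the knockout line, then the wild-type line, although Fosl1 (0.15 ± 0.09 log2, limma adjusted p = 0.302) and Myc (0.38 ± 0.14, adjusted p = 0.0561) did not differ past the threshold between the tracheal lines. Fosl2, Jun and Jund ran the other way, and again the tracheal lines were not separated past it (-0.17 ± 0.10, -0.36 ± 0.17 and -0.33 ± 0.13, adjusted p of 0.252, 0.165 and 0.0785) on the brighter probe sets. Those of Jun and Fosl2 that were dimmer differed from this: that of Jun separated the tracheal lines, as given above, and that of Fosl2 read 0.06 ± 0.12 higher in the knockout line (adjusted p = 0.80). With the mean of both probe sets Jun gave -0.42 between the tracheal lines (adjusted p = 0.0151), under 2-fold. Egr1 had its highest mean in the knockout line. Fosb was highest in the tumour line, and the tracheal lines differed by -0.07 ± 0.17 (adjusted p = 0.824).

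The genes with the most similar profiles were found by the Euclidean distance between values of the 9 arrays, each gene centred on its own mean. Nearest to Fosl1 lay Iqgap3 (distance 0.301), Gusb (0.36) and the ETS factor Etv4 (0.368). Irx2 (0.302), Atp6v1b2 (0.463) and Tfap2a (0.466) were nearest to Fosl2. For Egr1 they were Macrod1 (0.257), the peroxide-degrading catalase Cat (0.276) and Slc43a2 (0.306), and for Myc they were Eef1e1 (0.362), Slc29a1 (0.372) and Coq10b (0.378). Fosb had Ret (0.445), Prr5 (0.482) and Tnfrsf11b (0.484) as neighbours. Vps52 was the nearest gene to both Jun (0.373) and Jund (0.237), and Jund was the second nearest to Jun (0.40). Tle2 (0.263) and Rras (0.337) followed for Jund, and Bag3 (0.43) came next for Jun.

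Genes around these factors were read from lists of textbook members. The lists were chosen with earlier results of these data known, so their shares of called genes are descriptions and no independent test. Among 21 measured partners and related leucine zipper factors, 1 rose and 1 fell between tumour and knockout lines, a share of 9.52% beside 14.2% of all genes. The small Maf protein Maff rose by 2.07 ± 0.11 log2 (limma adjusted p = 6.18e-10) and Maf fell by 2.93 ± 0.13 (adjusted p = 1.08e-10). Against the wild-type line 1 rose and 2 fell: Maff by 1.73 up, Maf by 3.88 ± 0.13 down, and Nfe2l3 with a difference of -1.43 ± 0.13. That is 14.3%, beside 16.6% of all genes. In the knockout against the wild-type line 0 of 21 were called by limma, beside 4.88% of all genes. Of the 21, 9 had an unadjusted p under 0.05.

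Of 30 other immediate early genes, 5 rose and 4 fell in the tumour against the knockout line, with a median of 0.03 log2 (30% called, beside 14.2% of all genes). In the comparison with the wild-type line 5 rose and 6 fell (36.7%, beside 16.6% of all genes). The matrix-associated growth factor Ccn2 rose by 7.36 ± 0.20 log2 against the knockout line, whose mean of 5.73 lay under the highest bacterial control. The ERK phosphatase Dusp5 rose by 2.68 ± 0.13 and the prostaglandin synthase Ptgs2 by 2.04 ± 0.14, while the GTPase Rhob fell by 1.56 ± 0.12. Against the wild-type line the nuclear receptor Nr4a2 fell by 2.87 ± 0.14 and Klf4, an epithelial differentiation factor, fell by 2.04 ± 0.10. Between the knockout and wild-type lines 6 of these 30 genes were called (20%, beside 4.88% of all genes), 1 higher and 5 lower. Btg2 rose by 1.30 ± 0.10 log2 there, and Nr4a2 (-1.71 ± 0.14), Ptgs2 (-1.33 ± 0.14) and the phosphatase Dusp1 (-1.31 ± 0.12) fell.

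Serum response factor and its Elk and Mrtf cofactors, which induce Egr1 and Fos, were listed with the Egr corepressors Nab1 and Nab2. By limma 0 of these 8 genes were called in the tumour line relative to the knockout line, beside 14.2% of all genes. Of the 8, 7 had an unadjusted p under 0.05. Srf was just short of a call there, at -0.99 ± 0.15 log2 or 1.99-fold (limma adjusted p = 4.32e-05). Against the wild-type line Srf fell by 1.22 ± 0.15 log2 (limma adjusted p = 4.63e-06) and Elk3 rose by 1.07 ± 0.09 (adjusted p = 1.66e-07), 25% of the list beside 16.6% of all genes. The list of MAP kinase cascades to AP-1 holds kinases, Ras proteins such as Nras and the ubiquitin ligase components Fbxw7 and Cop1, and 17 of its 24 genes were analysed here. In the tumour line 2 of 17 fell and 0 rose against either tracheal line, a share of 11.8% beside 14.2% of all genes called against knockout and 16.6% against wild-type: the JNK pathway kinase Map3k1 by 1.34 ± 0.11 against knockout and by 1.78 ± 0.11 against wild-type, and Rps6ka3, an ERK-activated kinase, by 1.21 ± 0.10 and by 1.03 ± 0.10. Between the tracheal lines limma called 0 of the 17 cascade genes and 0 of the 8 serum response genes, beside 4.88% of all genes. At an unadjusted p under 0.05 were 6 and 3 of them.

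Of 21 measured AP-1 target genes, 9 rose and 1 fell in the tumour line against the knockout line (47.6%, beside 14.2% of all genes), with a median of 0.76 log2, and 9 rose and 1 fell against the wild-type line (47.6%, beside 16.6% of all genes), with a median of 0.59. The collagenase Mmp13 was at least 9.58-fold higher than in either tracheal line, reading 8.57, 7.94 and 8.72 on tumour arrays, 3.87, 3.84 and 3.96 on knockout arrays and 4.72, 4.69 and 4.74 on wild-type arrays, the last 6 all under the floor. The collagen receptor subunit Itga2 rose by 3.95 ± 0.19 log2 and the urokinase receptor Plaur by 2.99 ± 0.22 against the knockout line. The matrix protein Tnc fell by 3.65 ± 0.14 there. Between the knockout and wild-type lines 3 of 21 were called (14.3%, beside 4.88% of all genes), Ccnd1 at 2.22 ± 0.12 and the cytokine Lif at 1.31 ± 0.10 higher, and Tnc at -1.14 ± 0.14 lower.

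**Figure D4:**
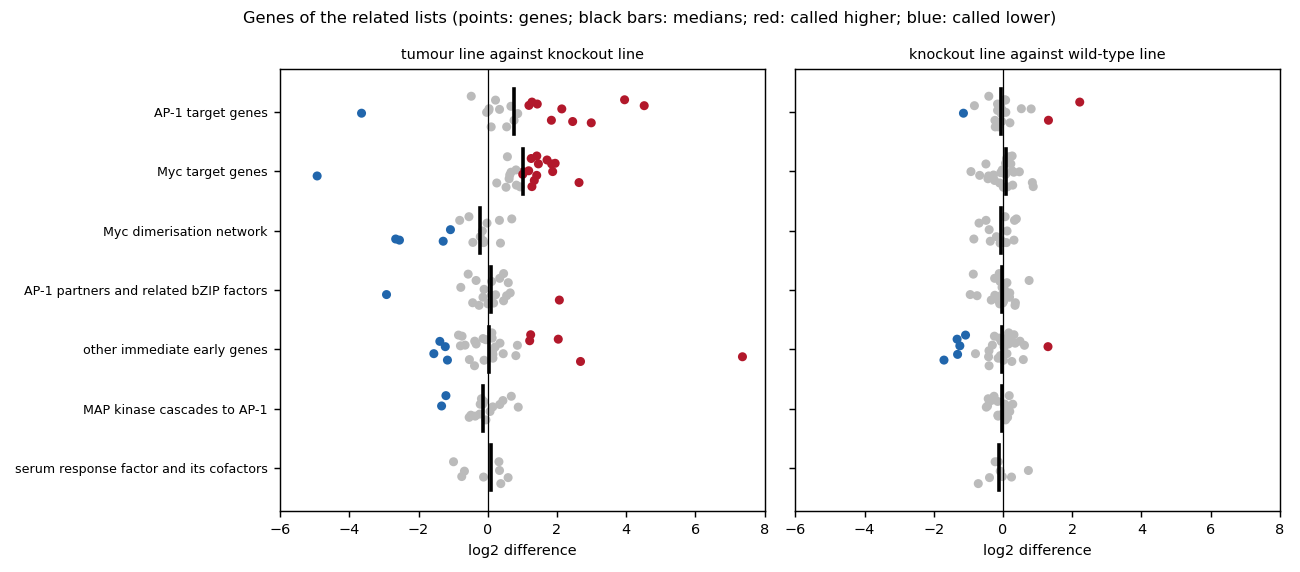
Log2 difference (horizontal axis) of each gene in the 7 related lists, for tumour against knockout and for knockout against wild-type. Points are genes, red called higher, blue called lower and grey not called, and black bars are medians. The medians of Myc targets (1.03) and AP-1 targets (0.76) lie right of 0 for tumour against knockout, and all 7 medians lie near 0 for knockout against wild-type.

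Myc target genes, which serve ribosome production, nucleotide supply and growth, had 15 of 25 higher and 1 lower in the tumour against the knockout line (64%, beside 14.2% of all genes), with a median of 1.03 log2. Against the wild-type line 14 rose and 1 fell (60%, beside 16.6%), with a median of 1.08. The transferrin receptor Tfrc rose by 2.64 ± 0.08 log2 against the knockout line, the Ran-binding Ranbp1 by 1.95 ± 0.13 and the cell cycle phosphatase Cdc25a by 1.87 ± 0.12. Cad, which starts pyrimidine synthesis, rose by 2.15 ± 0.11 against the wild-type line. The gene that fell was the cyclin Ccnd2, which averaged 7.37 ± 0.28 log2 on tumour, 12.30 ± 0.12 on knockout and 12.72 ± 0.27 on wild-type arrays (SD, n = 3 each). By limma 0 of 25 were called between the knockout and wild-type lines, beside 4.88% of all genes. There 14 had an unadjusted p under 0.05 and the median was 0.08.

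Of the partners and antagonists of Myc, 15 were measured. In the tumour against the knockout line 4 of 15 fell and 0 rose (26.7%, beside 14.2% of all genes called and 6.38% called lower). Mycl, a Myc paralog, fell by 2.66 ± 0.18 log2, Mxd4 by 2.55 ± 0.12, Mxd1 by 1.29 ± 0.09 and the ubiquitin ligase Mycbp2 by 1.08 ± 0.12. Mxd1 and Mxd4 compete with Myc for its partner Max and repress. Against the wild-type line the same 4 genes fell, and Max rose by 1.08 (33.3% called, beside 16.6% of all genes). Between the knockout and wild-type lines limma called 0 of 15, beside 4.88% of all genes, with 8 at an unadjusted p under 0.05.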

How the data were processed

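RNA of 3 cell lines was labelled with biotin and hybridised to Affymetrix arrays, per the labels' protocols, 3 arrays each. The deposited values, 1 per probe set and array, were taken as log2 signals because of their range. Array medians lay between 6.28 and 6.34. How the authors corrected background, summarized probes and normalized is not given in the sources used here. Arrays give no counts, so their number limits the precision.

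Of 45101 probe sets, 64 were controls and 34945 carried exactly 1 gene symbol in the platform annotation. Of several such probe sets the one with the highest mean stood for the gene, which left 18193 genes. A linear model over all 9 arrays was fitted by limma 3.58.1 in R 4.3.3 (lmFit, eBayes, 6 residual degrees of freedom, two-sided tests), and again on every probe set that is no control. It was tested on simulated data with known changes. A gene was called at an adjusted p under 0.05 and at least 2-fold. Where all arrays of the dimmer line lay under the floor of 5.15, the fold is a lower bound against that floor.

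The members and the gene lists were chosen with earlier results of these data known. The text names all members and probe sets, up to 4 called genes with the largest change per list and comparison, and the 3 nearest genes of each called member. Same-numbered arrays of different lines were not correlated in their deviations (r of -0.142 to 0.119 over 9 pairs), so no block was used. The alternatives tried changed the normalization, the filter on dim probe sets, the choice of probe set, the threshold, the spread estimate, the arrays in the fit and the replicate block.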

Additional observations from a re-analysis of the deposited data

How the results depend on the processing

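The counts of called members were recomputed under 19 alternative settings. For tumour against wild-type all gave within 1.5 times the 7 called, with 5 to 8 when arrays were left out one at a time; the lowest, 5, came without wild-type replicate 1. For tumour against knockout leaving out arrays gave 4 to 5, and the count of 4 became 8 with no fold threshold and 8 at 1.5-fold. For knockout against wild-type the count of 0 became 2 with no fold threshold and 1 at 1.5-fold, and was 0 in every other setting run. The numbers of all genes called moved at these thresholds too: 3012 became 8614 and 5386 between tumour and wild-type, 2578 became 8103 and 4881 between tumour and knockout, and 888 became 4805 and 2178 between knockout and wild-type.

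With the replicate block 7 members were called between tumour and wild-type, 4 between tumour and knockout and 0 between knockout and wild-type. By probe set the numbers were 9, 6 and 0, so the block changed no count of calls. Only 1 of 9 same-numbered pairs of arrays correlated above 0.1.

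Of 570 differences of single members under these settings, 536 kept their direction and their side of the threshold, 23 became calls, 5 lost the call and 6 changed sign. The settings with no fold threshold and at 1.5-fold only lower the cut, so they can add calls but not remove any. Part of the 23 new calls came from them. The 6 that changed sign were uncalled differences near 0. They arose when single arrays were left out, which moved Fos between -0.1415 and 0.3206 and Fosb between -0.1822 and 0.045 for knockout against wild-type, and Junb between -0.2922 and 0.058 for tumour against wild-type. The causes were not tested. Signals of Fosb in the tracheal lines and of the dimmer Jund probe set lay close to the bacterial controls, which limits what they can show.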
